A study of Mus musculus with 12 samples.

Results

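The tripartite motif (TRIM) family is a large group of proteins built on one plan, and its transcripts were examined here in single cells of the mouse 2-cell embryo. The probes were those of the array whose gene name was Trim followed by a number, leaving out Trim28 and Trim61. They were 97 of the 41174 non-control probes and stood for 49 of its 27962 gene names. The study measured 12 single blastomeres, the 2 cells of each of 6 embryos from CF-1 females mated naturally, taken about 36 h post coitus. Each embryo was flushed from the oviduct and its blastomeres were squeezed out through a slit in the zona pellucida, then profiled separately as cell 1 and cell 2. Embryo pairs D, I and L formed experiment 1 and pairs D, G and H, which are other embryos, experiment 2, with 6 cells in each. No group was treated, and all cells were of the same strain and stage. Poly(A)+ RNA of each cell was amplified before hybridisation to an Agilent whole mouse genome array. The labels do not say what the cell numbers stand for.

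A typical TRIM protein carries a RING finger, 1 or more B-box zinc fingers and a coiled coil at its amino-terminal end. The RING finger makes many of them E3 ligases, the enzymes that choose which proteins receive ubiquitin. The carboxy-terminal end varies and sets what the protein binds. A SPRY domain, often with a PRY segment before it, is the most frequent end and is found in many antiviral members such as Trim21, a cytosolic antibody receptor, and Trim25, a ligase that activates the RNA sensor RIG-I. A COS box ties members such as Trim9, Trim36 and Trim46 to microtubules, and NHL repeats in Trim2, Trim3 and Trim32 form a binding propeller. A PHD finger with a bromodomain reads histone marks in Trim24, Trim33 and Trim66. Trim24, also called TIF1 alpha, has been linked to the first transcription of the mouse embryonic genome. A membrane anchor holds Trim13 and Trim59 in the endoplasmic reticulum.

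The start of a gene can differ greatly between members, and 4 upstream sequences are shown because their genes behaved differently on the arrays. Trim24 and Trim13 were detected in every cell, and Trim60 in 10 of 12. Trim26 had the largest difference between the experiments among the tested TRIM probes. Each sequence is the 250 bases before the RefSeq gene start in assembly GRCm38.p6, read 5′ to 3′ on the strand of the gene. Capitals mark matches, on either strand, to the GC box GGGCGG, the CCAAT box, the TATA box TATAAA and the interferon response element, written as GAAA, any 2 bases and GAAA. Trim24 starts after chr6:37870561-37870810 (plus strand), Trim13 after chr14:61597976-61598225 (plus strand), Trim26 after chr17:36836896-36837145 (plus strand) and Trim60 after chr8:65018689-65018938 (minus strand).
Trim24: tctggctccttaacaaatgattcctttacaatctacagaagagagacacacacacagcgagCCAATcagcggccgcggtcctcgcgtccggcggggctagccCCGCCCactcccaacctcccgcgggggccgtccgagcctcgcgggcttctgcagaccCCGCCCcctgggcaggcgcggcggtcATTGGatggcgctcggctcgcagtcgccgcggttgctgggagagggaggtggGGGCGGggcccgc
Trim13: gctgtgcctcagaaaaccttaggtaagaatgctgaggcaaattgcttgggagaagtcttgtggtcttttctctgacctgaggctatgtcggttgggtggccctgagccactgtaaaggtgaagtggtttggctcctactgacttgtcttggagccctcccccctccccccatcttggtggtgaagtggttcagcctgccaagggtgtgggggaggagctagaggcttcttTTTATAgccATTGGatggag
Trim26: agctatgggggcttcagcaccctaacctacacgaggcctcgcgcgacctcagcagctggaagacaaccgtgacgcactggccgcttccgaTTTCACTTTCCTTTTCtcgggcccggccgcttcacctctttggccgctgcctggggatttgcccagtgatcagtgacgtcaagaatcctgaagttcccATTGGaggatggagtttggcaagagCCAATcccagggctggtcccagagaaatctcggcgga
Trim60: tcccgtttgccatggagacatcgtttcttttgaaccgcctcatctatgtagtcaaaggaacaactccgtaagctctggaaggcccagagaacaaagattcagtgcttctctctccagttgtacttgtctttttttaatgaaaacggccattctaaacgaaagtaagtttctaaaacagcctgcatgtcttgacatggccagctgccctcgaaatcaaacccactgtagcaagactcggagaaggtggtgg
Trim24 had 69.6% G and C and a CpG content of 0.89 of that expected from its base composition. It held 3 GC boxes and 2 CCAAT boxes and no TATA box. Trim13, detected as widely, had 53.6% G and C, a CpG ratio of 0.06, 1 TATA box and 1 CCAAT box. Trim26 had 58.8% G and C and a CpG ratio of 0.70, with 2 CCAAT boxes and 2 overlapping matches to the interferon response element on the opposite strand. Trim60 had 45.6% G and C, a CpG ratio of 0.62 and none of these motifs.

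Of the 49 genes, 36 matched an upstream sequence. The GC box was found before 16 of them, or 44.4%, against 33.0% of 27025 genes. The CCAAT box was found before 44.4%, against 34.5% of all genes, and the TATA box before 11.1%, against 13.0%. The interferon response element was found before 2 of the 36, or 5.56%, against 3.05% of all genes: these were Trim26 and Trim30a, a negative regulator of innate signalling whose probes carry the older name Trim30. The 9 matched genes with a probe detected on every array had a median G and C content of 63.2% and a median CpG ratio of 0.88. The 14 detected on 6 to 11 arrays had medians of 51.8% and 0.56, and the 13 detected on fewer had medians of 53.6% and 0.23. Over all genes the medians were 52.0% and 0.38. These are matches of letters in one window and are given as a description.

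A probe was called detected on an array when its signal was well above background. The share of all spots detected ran from 22.1 to 41.7% over the cells of experiment 1 and from 31.2 to 78.8% over those of experiment 2. Markers of oocytes and 2-cell embryos were detected at 75 to 100% of their probes on each array, so the labelled cells' own transcripts were well represented. Markers of cumulus and granulosa cells, which surround the egg, were detected at 0 to 80.0% of their probes, most in the best detected array. In experiment 1 the cells also carried signal of genes that mark other tissues. The summed level of 10 oviduct markers was 7.55 to 54.3 in experiment 1 and 0.574 to 1.91 in experiment 2, where 0.574 means all 10 at the floor. That of 11 stromal and immune markers was 11.6 to 226 against 0.631 to 1.20. Of the tested markers, 5 of 8 oviduct genes and 5 of 9 stromal and immune genes were lower in experiment 2 at an adjusted p under 0.05. None was higher at that threshold. Among those that did not pass, Epcam (0.62), Pax8 (0.54) and Cd52 (0.15) had positive log2 differences. Foxj1 (-0.21), Cd68 (-0.37), Hba-a1 (-1.48) and Hbb-b1 (-1.10) had negative ones. Ovgp1, the oviduct glycoprotein, Krt8 and Col1a1 were at the floor in all 6 cells of experiment 2. A value at the floor does not mean absence. Of the 12 arrays, Krt8 was detected on 10, Col1a1 on 8 and Ovgp1 on 7, so each was detected in experiment 2 as well.

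The experiments also differed in dye. Signal was in Cy5 in experiment 1 and in Cy3 in experiment 2, although the labels name Cy3 throughout. Experiment, dye and scan coincide and cannot be told apart. Each experiment used 2 slides of its own, with pair D alone on 1 of them and the other 2 pairs together on the other. In the Cy3 channel of experiment 1 no TRIM spot was well above background.

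Every TRIM gene was detected in at least 1 cell, but few were detected in all. A probe of 11 genes was detected on all 12 arrays: Trim8, Trim13, Trim15, Trim24, Trim26, Trim33, Trim37, Trim41, Trim44, Trim46 and Trim59. The best probe of 20 genes was detected on 6 to 11 arrays and that of the remaining 18 on 1 to 5, and no gene was missing from every array. By probes, 11 of 97 (11.3%) were detected on all arrays and 12 (12.4%) on none, against 14.2% and 15.6% of all probes. In experiment 1 TRIM probes were detected in 31.8% of cases and all probes in 33.5%, and in experiment 2 the shares were 51.9% and 51.7%. The family was thus detected about as often as the array as a whole.

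**Figure D1:**
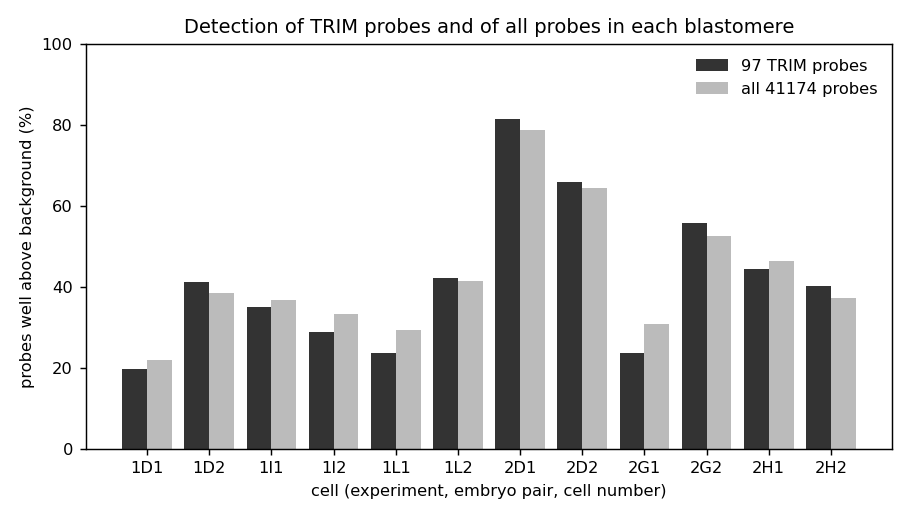
Percentage of the 97 TRIM probes (dark bars) and of all 41174 probes (light bars) well above background in each of the 12 cells, named by experiment, embryo pair and cell number. The bars of a cell are close to each other, and both are highest in the cells of experiment 2 pair D, where 81.4% and 66.0% of TRIM probes were detected.

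The number of TRIM probes detected per cell followed the array. In experiment 1 cells 1 and 2 of pair D had 19 and 40, those of pair I 34 and 28, and those of pair L 23 and 41. In experiment 2 the cells of pair D had 79 and 64, those of pair G 23 and 54, and those of pair H 43 and 39. The share of TRIM probes minus that of all probes was farthest from 0 in cell 1 of experiment 2 pair G, at -7.20 percentage points. Of the 1164 TRIM values, 487 were well above background and 834 lay at the common floor of -4.12 log2 units. The floor is set by the array with the poorest lower limit of detection, so 160 values were detected and still set to it.

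Detection was uneven over the domain classes. Both genes with a membrane anchor were detected widely: their 4 probes were well above background in 79.2% of cases in experiment 1 and 95.8% in experiment 2. Of the bromodomain genes, Trim24 and Trim33 were detected in all cells, while Trim66, known from the testis, was detected in 1 cell. The SPRY class, with 24 genes and 48 probes, had 3 probes on all arrays, those of Trim15, Trim26 and Trim41. Among its antiviral members, Trim25 was on 9 arrays, Trim30 on 5, Trim21 and Trim34 on 4 and Trim14, an adaptor of the mitochondrial antiviral complex, on 2. Of the 8 COS genes, Trim46, a bundler of axonal microtubules, was on all arrays and Trim36, a microtubule-binding ligase, on 8. The muscle RING finger genes of this class, Trim54, Trim55 and Trim63, were on 9, 3 and 3. No NHL gene was on all arrays: Trim3 was on 11, Trim32, a ligase mutated in a muscular dystrophy, on 9, and Trim2, a neuronal ligase, on 2. Among the 9 genes with other ends, Trim8, Trim37 and Trim44 were on all arrays, and Trim56, a ligase of the DNA-sensing pathway, was on 5. These counts rest on each gene's best probe.

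**Figure D2:**
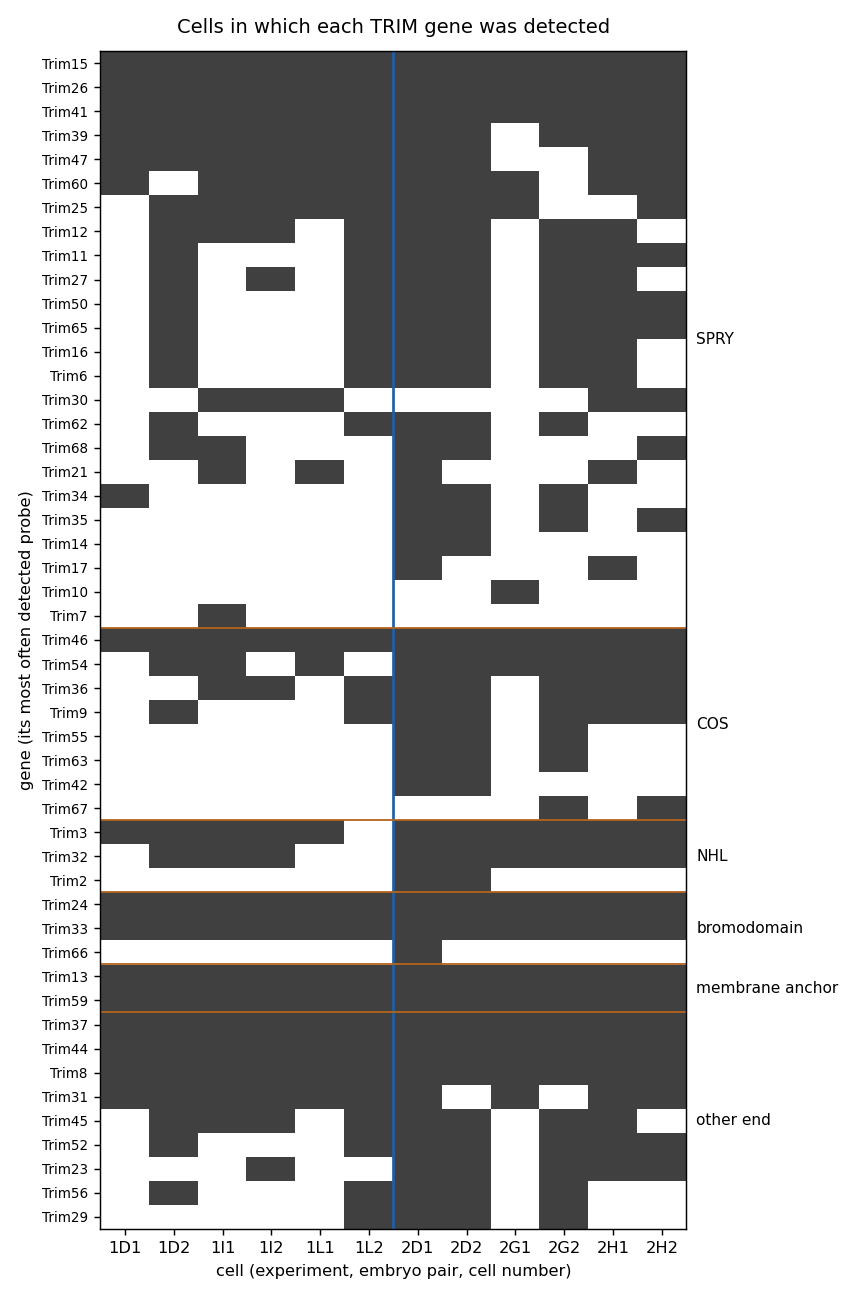
Detection of each of the 49 TRIM genes (rows, grouped by the domain at the carboxy-terminal end) in each of the 12 cells (columns), by the most often detected probe of the gene; a dark field means well above background. The rows of 11 genes are dark in all cells, and the others are dark most often in cells 1 and 2 of experiment 2 pair D.

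Probes of one gene often disagreed. Of 31 genes with several probes, 5 had one on all 12 arrays and another on fewer than 6: Trim8, Trim24, Trim26, Trim37 and Trim44. Trim37, a ligase of peroxisomes and centrosomes, had probes on 12, 4 and 0 arrays. Trim6, a ligase of the interferon kinase pathway, had 5 probes, on 6, 6, 5, 3 and 3 arrays. Of the 97 accessions, 71 matched RefSeq, and Trim12, Trim30 and Trim34 are now named Trim12a, Trim30a and Trim34a. The array held 5 further TRIM genes under older names, which were not among the members. Of these, Trim30b was detected on 1 array of each experiment, and Trim12c, Trim30d, Trim69 and Trim80 each on 3 arrays of experiment 2 and 0 of experiment 1.

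Levels below are log2 units relative to the array's 75th percentile, in the order cell 1, cell 2 of each pair, and the floor is -4.12. Probes differ in affinity, so levels are compared between cells and not between genes. Trim24 was level across the experiments. It read 0.89 and 0.75 (pair D), 0.53 and 1.11 (pair I), and 0.47 and 0.70 (pair L) in experiment 1. Experiment 2 gave 0.61 and 0.97 (pair D), 0.15 and 0.34 (pair G), and 1.33 and 1.16 (pair H). The experiments overlapped fully and their means were 0.74 (SD 0.24, n = 6) and 0.76 (SD 0.47, n = 6).

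Trim37 spanned -2.01 to -0.57 in experiment 1 and -2.15 to -0.67 in experiment 2. In experiment 1 cell 2 was the higher in pairs D and I, at -1.40 and -0.57 (pair D) and -2.01 and -0.96 (pair I). Cells of pair L read -0.80 and -1.06, and those of experiment 2 read -0.93 and -0.67 (pair D), -1.77 and -1.53 (pair G), and -1.13 and -2.15 (pair H). Trim41, a ligase described for protein kinase C, had similar means in both experiments, -1.12 (SD 0.55, n = 6) and -1.06 (SD 0.28, n = 6). It read -1.05 and -1.98 (pair D), -1.16 and -0.54 (pair I), and -1.46 and -0.55 (pair L) in experiment 1. In experiment 2 the values were -0.87 and -0.82 (pair D), -1.13 and -1.60 (pair G), and -0.94 and -1.02 (pair H). For both genes the experiments overlapped.

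Trim46 was detected on every array but close to the floor. In experiment 1 it read -3.33 and the floor (pair D), the floor in both cells (pair I), and -3.88 and -3.45 (pair L). In experiment 2 it read -3.56 and -3.10 (pair D), the floor and -4.06 (pair G), and the floor in both cells (pair H). So 6 of its 12 values lay at the floor and have no order.

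**Figure D3:**
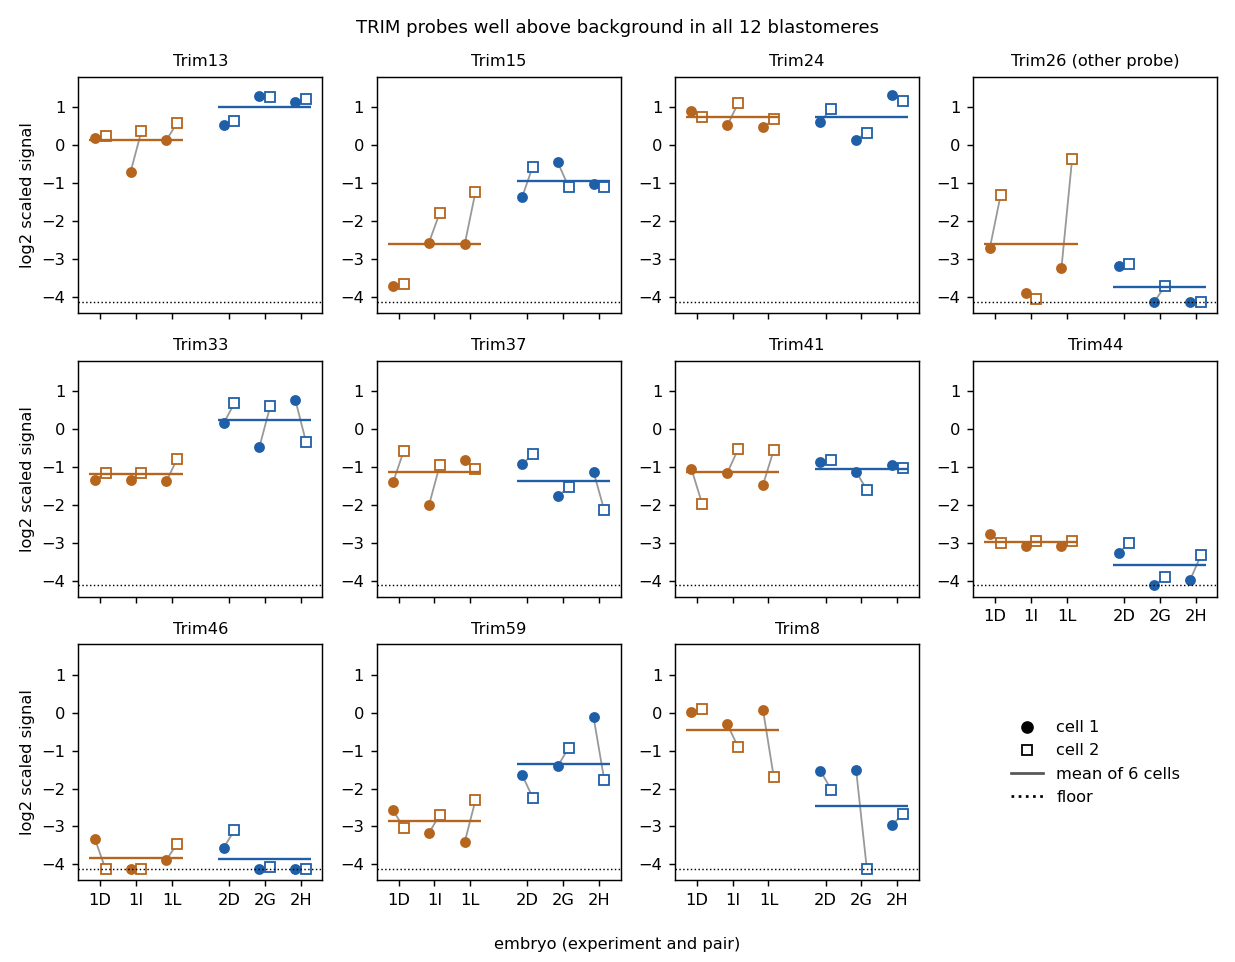
Log2 scaled signal of the 11 TRIM probes well above background in all 12 cells, by embryo (1D, 1I and 1L in experiment 1, 2D, 2G and 2H in experiment 2). Filled circles are cell 1 and open squares cell 2, joined for each embryo; horizontal lines are means of 6 cells and the dotted line is the floor at -4.12. Trim33 and Trim59 sit higher in experiment 2 without overlap, Trim8 mostly lower, and Trim24 and Trim41 at the same level; the Trim26 panel shows the probe on all arrays, not the one that passed the test.

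The experiments were compared over all 12 cells in a limma model with the embryo as a random block. Of the 38 TRIM probes (31 genes) detected on at least 6 arrays and tested, 2 passed at an adjusted p under 0.05, or 5.26%, where 8.1% of all 16694 tested probes passed. At an unadjusted p under 0.05 there were 9, against 19.2% of all probes. Trim33 rose and Trim26 fell in experiment 2, while 3.95% of all tested probes rose and 4.15% fell. The 6 cells of each experiment did not overlap for 3 TRIM probes, those of Trim33, Trim59 and Trim26, or 7.89%, against 7.66% of all probes. Both shares are near those of the array as a whole.

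Trim33, also called TIF1 gamma, is a nuclear ligase that acts on Smad4 in TGF-beta signalling. In experiment 1 it read -1.34 and -1.17 (pair D), -1.35 and -1.16 (pair I), and -1.37 and -0.79 (pair L). In experiment 2 it read 0.15 and 0.68 (pair D), -0.47 and 0.60 (pair G), and 0.78 and -0.34 (pair H). Every cell of experiment 2 was above every cell of experiment 1, and experiment 1 was the tighter group. The difference was 1.43 (SE 0.32, adjusted p = 0.0187), beside a median difference of 0.19 over all tested probes. Over 24 alternatives the adjusted p ran from 0.00183 to 0.299, and the call was lost in 6. These 6 were the 75th percentile of all probes, normexp, both other floors, the deposited values, and the fit without cell 1 of experiment 1 pair L (0.0802).

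Trim26, a ligase of the major histocompatibility region described in the control of interferon signalling, went the other way. The probe with the highest mean read -1.64 and -1.11 (pair D), -0.74 and -1.74 (pair I), and -3.11 and -2.89 (pair L) in experiment 1. In all 6 cells of experiment 2 it lay at the floor, although it was well above background on 5 of these arrays. The difference of -2.25 (SE 0.40, adjusted p = 0.00564) is therefore a lower bound in size, and it was -3.75 with a lower floor and -3.56 from the deposited values. Scaling by all probes took the adjusted p to 0.0859, and the other 22 alternatives in which the probe was tested kept the call, at adjusted p from 0.00178 to 0.0205.

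A second Trim26 probe, detected on all arrays, read -2.71 and -1.32 (pair D), -3.89 and -4.05 (pair I), and -3.25 and -0.35 (pair L). In experiment 2 it read -3.19 and -3.12 (pair D), the floor and -3.70 (pair G), and the floor (pair H). Its difference was in the same direction, -1.14 (SE 0.72), at an adjusted p of 0.438, and the experiments overlapped. The pairs also ranked differently on the 2 probes, since pair I was high on the first and low on the second. The remaining probe was detected on 4 arrays and was not tested.

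Several members had differences over 1.5 log2 units and did not pass. Trim15, a ligase of focal adhesions, read -3.72 and -3.64 (pair D), -2.56 and -1.79 (pair I), and -2.60 and -1.23 (pair L) in experiment 1. Experiment 2 gave -1.37 and -0.56 (pair D), -0.45 and -1.09 (pair G), and -1.02 and -1.09 (pair H). Only cell 2 of pair L reached the range of experiment 2, and the difference was 1.66 (SE 0.47, adjusted p = 0.0533). Trim59 read -2.57 and -3.05 (pair D), -3.18 and -2.69 (pair I), and -3.41 and -2.31 (pair L). Its cells in experiment 2 read -1.63 and -2.24 (pair D), -1.41 and -0.93 (pair G), and -0.12 and -1.78 (pair H). They did not overlap those of experiment 1, at a difference of 1.52 (SE 0.44, adjusted p = 0.0556), and its second probe gave 1.14 (SE 0.33, adjusted p = 0.0580).

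Trim13, the other anchored member and a ligase of the disposal of misfolded proteins from the endoplasmic reticulum, lay close in the twins of experiment 2. It read 0.55 and 0.65 (pair D), 1.29 and 1.28 (pair G), and 1.15 and 1.21 (pair H). In experiment 1 it read 0.21 and 0.26 (pair D), -0.70 and 0.37 (pair I), and 0.14 and 0.59 (pair L). The experiments overlapped only between cell 1 of pair D in experiment 2 (0.55) and cell 2 of pair L in experiment 1 (0.59). The difference was 0.88 (SE 0.27, adjusted p = 0.0760), while its second probe, near the floor, gave 0.14 (SE 0.29, adjusted p = 0.805).

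Trim8, a ligase that binds the cytokine inhibitor SOCS1, had the largest negative difference after Trim26 among the tested TRIM probes. It read 0.01 and 0.10 (pair D), -0.31 and -0.90 (pair I), and 0.06 and -1.70 (pair L) in experiment 1. In experiment 2 it read -1.52 and -2.02 (pair D), -1.51 and the floor (pair G), and -2.96 and -2.68 (pair H). Cell 2 of pair L lay within the range of experiment 2, and the difference was -2.02 (SE 0.62, adjusted p = 0.0753). Trim47, a SPRY member, read -2.29 and -2.45 (pair D), -1.68 and -3.98 (pair I), and -1.50 and -2.53 (pair L). In experiment 2 it was at the floor in 4 cells and read -3.25 in cell 2 of pair D and -3.90 in cell 1 of pair H, so that it overlapped experiment 1 only through cell 2 of pair I, at a difference of -1.54 (SE 0.50, adjusted p = 0.0882). Trim44, which carries a ubiquitin-protease zinc finger in place of a RING, ran from -3.09 to -2.76 in experiment 1. It read -3.26 and -3.01 (pair D), the floor and -3.90 (pair G), and -3.97 and -3.33 (pair H) in experiment 2, with cell 2 of pair D inside the range of experiment 1, and a difference of -0.62 (SE 0.23, adjusted p = 0.129).

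Over all 38 tested probes, 27 were higher in experiment 2 by the sign of the difference, or 71.1%, against 64.7% of all probes, and the median was 0.26 against 0.19. The 4 probes with a membrane anchor were all positive with a median of 1.01, and those of the SPRY class were positive in 14 of 19 with a median of 0.31. The medians changed with the processing. After normexp background correction the median was -0.73 over the TRIM probes and -0.76 over all probes. With scaling by the 75th percentile of all probes the medians were 0.0079 and 0.0020. Among all probes 660 rose and 693 fell, while scaling by all probes called 22 higher and 151 lower. With a lower floor the split was 210 and 386, with a floor per array 94 and 274, and with normexp 54 and 373.

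**Figure D4:**
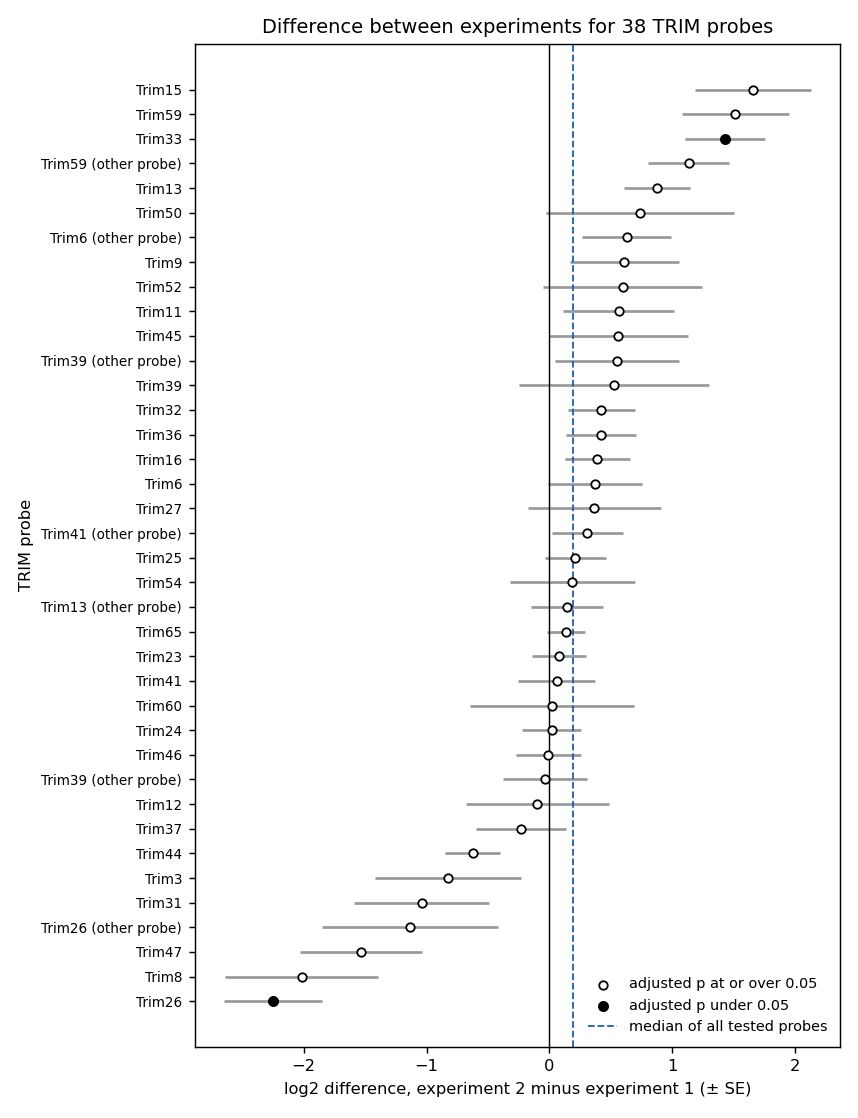
Log2 difference between experiments (experiment 2 minus experiment 1, with SE, n = 6 cells each) of the 38 tested TRIM probes. Filled points are the 2 with an adjusted p under 0.05, and the dashed line is the median of all tested probes at 0.19. Most points lie between -1 and 1, and Trim26 and Trim33 are the only filled ones.

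The marker genes described above were compared between experiments in the same model. All 10 oviduct and stromal or immune markers that passed were lower in experiment 2, from -2.50 for Clu to -8.15 for Lyz2. Of the 15 tested markers of oocytes and 2-cell embryos, 2 rose and 2 fell, with a median difference of 0.13. Tcstv1 (2.11, SE 0.21) and Tcstv3 (1.45, SE 0.25), transcripts of the 2-cell stage, rose, while Khdc3 (-2.53, SE 0.58) and Zar1 (-1.43, SE 0.26), maternal-effect genes of the egg, fell. Zscan4c, another transcript of the 2-cell stage, had a difference of -0.78 (SE 0.82) and did not pass. Among the other markers that did not pass, Dppa3 (0.67), Zp3 (0.64), Ooep (0.39), Gdf9 (0.21), Zp2 (0.20), Oosp1 (0.13) and Usp17la (0.11) had positive differences. Padi6 (-1.04), Bmp15 (-0.76) and Npm2 (-0.68) had negative ones, so genes of the egg went both ways. The part of other cells' RNA, of stage and of dye in the TRIM differences was not tested.

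Embryos were compared within experiments, with the twins as replicates. No TRIM probe passed, where 1.4% of all tested probes did (limma F test, 4 embryo contrasts). At an unadjusted p under 0.05 there were 10 TRIM probes, or 26.3%, against 29.8% of all. In experiment 2 alone 3 TRIM probes passed, those of Trim3, Trim12 and Trim13, against 4.69% of all probes, and 18 had an unadjusted p under 0.05, against 36.7% of all. Pair D was alone on its slide, so embryo and slide cannot be told apart there. Between pairs G and H, which shared a slide, 0 TRIM probes and 0 of all 16703 probes passed (limma), and 7 TRIM probes and 1507 of all had an unadjusted p under 0.05. In experiment 1 alone none passed (0% of all probes), and 1 had an unadjusted p under 0.05, against 9.08% of all.

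Most of the members with the smallest p were dim ones whose values stood above the floor in few cells. Trim16, a relative without a RING finger that acts in autophagy, was at the floor in 5 cells of experiment 1 and read -3.70 in cell 2 of pair L. In experiment 2 it read -2.95 and -2.90 (pair D), the floor and -3.76 (pair G), and the floor (pair H), at an adjusted p of 0.0666. Trim9, a ligase of the axon guidance receptor DCC, was at the floor in experiment 1 but for -3.51 in cell 2 of pair D and -3.40 in cell 2 of pair L. It read -2.08 and -2.02 (pair D), the floor and -3.27 (pair G), and the floor (pair H) in experiment 2 (adjusted p = 0.0755). Trim6 read -4.09 in cell 2 of pair D and -2.92 in cell 2 of pair L, and the floor in the other cells of experiment 1. Its cells of experiment 2 read -2.59 and -2.67 (pair D), the floor and -3.64 (pair G), and the floor (pair H), at an adjusted p of 0.116. For all 3 genes the cells of experiment 2 pair D were the highest, and these arrays detected the most probes of any kind.

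This order was shared with the array. Over the 74 TRIM probes detected on 1 to 11 arrays, 58.1% and 52.7% were above the floor in the cells of experiment 2 pair D, 40.5% in cell 2 of experiment 1 pair L and 36.5% in cell 2 of experiment 2 pair G. In the other 8 cells the share was 6.76 to 24.3%. Over all such probes the 4 shares were 58.3, 50.6, 37.9 and 34.5%. Detection alone gave another order, since cell 1 of experiment 2 pair H detected 46.7% of all spots and cell 2 of experiment 1 pair L 41.7%, with 10.8% and 40.5% of these TRIM probes above the floor. The part of signal above the floor in the embryo differences of dim members was not tested.

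Trim24 and, in experiment 1 only, Trim26 were the brighter members among those with the smallest p. All 6 values of Trim26 in experiment 2 lay at the floor, so those pairs added no spread to its test. Trim24 averaged 1.24 (pair H) and 0.24 (pair G) in experiment 2, with twins 0.17 and 0.19 apart (adjusted p = 0.142). Trim26 averaged -3.00 (pair L) against -1.38 and -1.24 in pairs D and I of experiment 1, with twins 0.22, 0.53 and 1.00 apart (adjusted p = 0.0810). Neither passed. The count of TRIM probes that passed rose in the fits without a single cell of experiment 1 pair L or of experiment 2 pair G. The count over all tested probes rose in the same fits. Such a fit leaves an embryo with a single cell, so its counts between embryos are not given. The count of 0 thus depends on the libraries kept, for the array as for the family.

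The cell numbers gave no TRIM call. Cell 2 was set against cell 1 within embryos, and 0 of 38 TRIM probes passed, as did 0% of all probes (limma). At an unadjusted p under 0.05 there were also 0, against 4.41% of all probes. The closest was Trim9, 0.38 higher in cell 2 (SE 0.16), with cell 2 higher in 4 embryos and the twins at the floor in the other 2. Trim52 was 0.75 higher (SE 0.33). It read -3.86 and -3.10 (pair D), the floor (pair I), and the floor and -2.32 (pair L) in experiment 1, then -1.73 and -1.67 (pair D), the floor and -2.29 (pair G), and the floor (pair H) in experiment 2.

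Trim27, a transcriptional repressor first known as Ret finger protein, was 0.61 higher in cell 2 on average. It read the floor and -3.12 (pair D), the floor (pair I), and the floor and -2.41 (pair L), then -2.15 and -2.25 (pair D), the floor and -3.06 (pair G), and the floor (pair H). For Trim52 and Trim27 the larger gaps lay in the embryos where the array of cell 2 detected more probes, that is experiment 1 pairs D and L and experiment 2 pair G. Trim60 was 0.73 lower in cell 2. It read -2.44 and the floor (pair D), -3.68 and -3.41 (pair I), and -1.46 and -3.18 (pair L), then -3.50 and the floor (pair D), -3.28 and the floor (pair G), and -1.67 and -1.48 (pair H). Cell 2 was the lower in 4 of 6 embryos. Trim8 was 0.85 lower in cell 2, and lower in 4 of 6. All 5 had an adjusted p of 0.674.

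Whether the cell number contrast differed between experiments was tested as an interaction. It passed for 0 TRIM probes and 0% of all probes (limma), and 0 TRIM probes had an unadjusted p under 0.05, against 5.27% of all. The interaction, experiment 2 minus experiment 1, was 1.38 for Trim47 (adjusted p = 0.988) and 0.37 for Trim44, -0.47 for Trim13, -0.97 for Trim59 and -0.71 for Trim15 (adjusted p = 0.999 for each).

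Twins were then compared without regard to number. No tested TRIM probe was over 1.5-fold apart in every embryo, and 0.827% of all tested probes were. At 2-fold there was also none, against 0.0719% of all. With a lower floor 1 was, Trim25, at 0.63 log2 units or more, with cell 2 the higher in 4 embryos and the lower in 2. Under the common floor used elsewhere, 9 of the 12 values of this probe were set to that floor. The share of all probes at the lower floor is not given. Among members detected in all cells, Trim59 had the largest smallest difference, with twins at least 0.47 log2 units apart in each embryo, cell 2 the higher in 3 and the lower in 3. Trim37 twins were at least 0.24 apart, those of Trim33 0.18, those of Trim24 0.15 and those of Trim44 0.11.

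Over the 38 tested TRIM probes the root-mean-square difference between twins was 0.78 on average (SD 0.28, n = 6 embryos), and 0.98 (SD 0.27, n = 24 pairs) between non-twin cells of one experiment. Over all tested probes these were 0.79 (SD 0.14) and 0.96 (SD 0.16). In experiment 2 the TRIM value of twins was 0.45 (pair H), 0.58 (pair D) and 0.92 (pair G). For twins of experiment 1 it was 0.64 (pair D), 0.84 (pair I) and 1.23 (pair L). On the 11 probes detected in all cells, twins differed by 0.76 and cells of different embryos by 0.85, against 0.82 and 0.97 over all such probes. The 24 non-twin pairs share cells, so they are not independent of each other and their SD is a description only. Twins always shared a slide and arrays differed in detection, and these values carry no test.

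**Figure D5:**
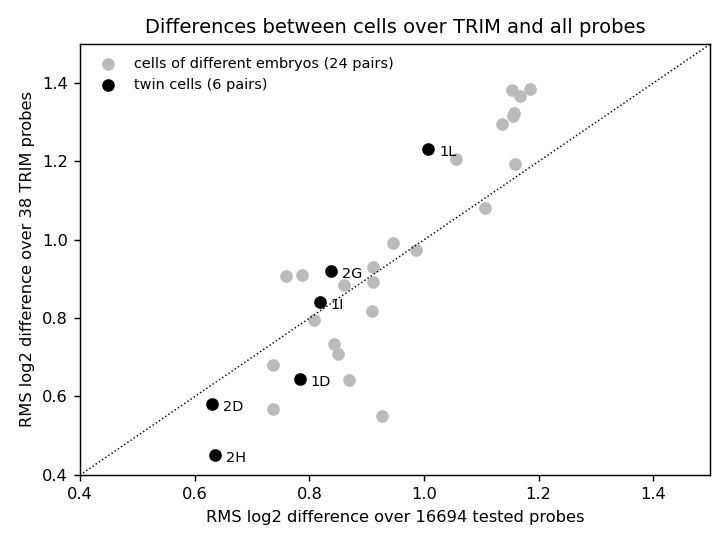
Root-mean-square log2 difference between 2 cells of the same experiment over the 38 tested TRIM probes (vertical axis) against that over all 16694 tested probes (horizontal axis). Black points are the 6 twin pairs, named by experiment and embryo, and grey points the 24 pairs of cells from different embryos; the dotted line marks equality. TRIM and overall differences rise together, from the twins of pairs D and H of experiment 2 to those of pair L of experiment 1 at 1.23 and 1.01.

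Genes that work with the family were counted the same way. TRIM relatives that carry other names comprised 10 genes on the array, 6 of them tested. Among these 1 passed between experiments, where 8.1% of all tested probes passed and 4.15% were lower in experiment 2: Mid1, a microtubule-bound COS-box ligase, fell by 2.30 log2 units (SE 0.55, adjusted p = 0.0241). Pml, the organiser of nuclear bodies, had a difference of -1.24 and did not pass (SE 0.53, adjusted p = 0.219). Fsd1 (-1.10) and Bspry (-0.60) also had negative differences, while Rnf207 (0.95) and Cmya5 (0.70) had positive ones, and none of these passed. The median difference of the 6 was -0.85, against 0.19 over all probes.

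Of 27 genes of antiviral sensing and interferon signalling, 15 were tested and 7 detected on all arrays. Between experiments 1 of the 15 passed, against 8.1% of all probes, and their median difference was 0.35. Irf3, the transcription factor that switches on interferon genes, fell by 1.84 (SE 0.37, adjusted p = 0.0103). Jak1, the kinase of interferon receptors, differed between embryos (adjusted p = 0.0456), the 1 call of the 15 against 1.4% of all probes. With cell number as a replicate block 0 of all probes passed between embryos, so this call was lost there. The same held in experiment 1 alone and within the 2-embryo slide of each experiment taken singly. With a lower common floor 2 of all probes passed and with the deposited values 1. In other settings the count was higher, up to 6698 with normexp, and the Jak1 result is not given there. No gene of these 2 lists passed for cell number or the interaction. The direction of the Mid1 and Irf3 differences between experiments held under all 6 other scalings and floors.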

How the data were processed

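The authors' scanner files, made with Agilent's Feature Extraction software (9.1.3.1 per the file headers), hold intensity values. Spots marked as outliers were left out, spots of a probe were averaged, and the processed signal of the channel that held RNA was scaled to each array's 75th percentile, taken over the 5858 probes detected on every array. Signals under a common floor of 0.0574 were raised to it before taking log2. Probes detected on 6 or more arrays and free of missing values, 16694 in all, were tested with limma 3.58.1 in R 4.3.3: embryo by an F test, cell number (and how it differed by experiment) with a fixed embryo block, and experiment with a random embryo block. P-values were adjusted by Benjamini-Hochberg over all tested probes, with a threshold of 0.05. The authors' deposited value table, linear intensity with low values raised to a floor, served as an alternative. Its values were close to these channels' signals divided by 1 constant per array: over detected probes the 5th percentile of the ratio was at least 0.870 and the 95th at most 1.02 times its median on each array. Why the authors divided is not given in the sources used here.

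The probe of highest mean stood for a gene. Values in every cell were given for members that passed, for the 5 with the smallest p in each comparison, for the 5 with the largest smallest twin difference, and for up to 3 per domain class detected on all arrays. Members and lists were chosen with earlier results of these data known. The scripts were tested on simulated data. The result of 1 further gene list is not reported here. No TRIM value was missing or saturated, and none came from an outlier spot. Twins are the only replicates of an embryo, and 12 arrays limit the precision. Upstream sequences were from RefSeq, assembly GRCm38.p6. Results were recomputed under 27 other settings and 3 more that were chosen after seeing the data. Figures were drawn with matplotlib 3.10.9.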

Additional observations from a re-analysis of the deposited data

Results flagged for a closer look

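In Trim13, cell 1 of experiment 1 pair I lay far below the other cells of its experiment, at -0.70 against 0.14 to 0.59. In Trim33, cell 2 of experiment 1 pair L lay above the others, at -0.79 against -1.37 to -1.16. In both cases the gap to the nearest cell, as a share of the range of the 6 cells, was over Dixon's critical value. Of the groups of 6 cells, 22 were tested, and chance alone flags about 1 group in 20.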

How the results depend on the processing

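The count of TRIM probes that passed between embryos was 0 and became 2 with the 75th percentile of all probes, 2 with quantile normalization, 20 with normexp, 11 with a floor per array, 8 with no filter on detection and 3 in experiment 2 alone; leaving out single cells gave 0 to 9. It stayed at 0 with a lower common floor (2 of all) and with the deposited values (1). It was also 0 on probes detected on all arrays (30 of 5858) and within the slides that held 2 embryos (14 of all). Over all probes the count between embryos was 234 of 16694. It became 334 with the 75th percentile of all probes, 464 with quantile normalization, 6698 with normexp and 4356 with a floor per array. It was 2752 of 41096 with no filter on detection and 784 of 16702 in experiment 2 alone. The count of the array thus rose in these settings as well. Between experiments the TRIM count was 2 (1353 of all). It became 0 with the 75th percentile of all probes (173), 7 with quantile normalization (1775) and 1 with normexp (427). It was also 1 with a lower floor (596 of all), a floor per array (368) or the deposited values (703). It was 4 of 11 on probes detected on all arrays (1336 of 5858) and 8 with no random block (2352). It was 6 without both cells of experiment 2 pair D (1404 of all), a setting chosen after seeing the data. Without single cells it was 1 to 4 (796 to 1564 of all). The cause was not tested. Cell number and the interaction gave 0 in all alternatives run. The count of twins 1.5-fold apart was 1 with a lower floor, where the share of all probes is not given. The count of probes on all arrays rose from 11 to 27 with the scanner's weaker call of a positive and significant signal. It was 11 to 13 without single cells. With cell number as a replicate block the count was 0 between embryos, as it was over all probes. There 14 TRIM probes had an unadjusted p under 0.05 (5409 of all). Between experiments this block gave 2 (1192 of all). Cell numbers did not pair the samples: deviations of same-numbered cells correlated at -0.12 to 0.16 over 15 pairs of embryos. Of 470 alternative values of named members, 427 kept their side of the threshold, 36 gained and 7 lost it, and none reversed.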
